A study of Mus musculus with 8 samples.

Results

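The imprinted cluster at the distal end of mouse chromosome 7 holds a pair of neighbouring domains, and 7 of its genes are described here in embryonic stem (ES) cells at 2 passages: H19, Igf2, Kcnq1ot1, Cdkn1c, Phlda2, Nap1l4 and Ascl2. They were chosen by symbol among the 23337 names of the deposited table, and earlier values of the same libraries entered the choice, since H19 was known to be higher and Kcnq1ot1 lower at the later passage in every clone. The change between passages is therefore given for these genes as a description, without a test. ES cells are pluripotent cells taken from the blastocyst, and cultures are passaged when they are split onto new dishes. The cells were wild type of strain 129S1 according to the sample labels, came from blastocysts with GFP at Rosa26, and were expanded in DMEM with LIF. RNA of 4 independent clones, numbered 6, 20, 30 and 36, was sequenced at passage 6 (P6) and at passage 16 (P16), which gave 8 libraries. The methods name C57BL6 as well as 129S1 cells and do not say which were sequenced.

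An imprinted gene is transcribed mainly from the copy of one parent, and the copy is marked by DNA methylation of a control region set in the germ line. In the first domain, H19, a spliced RNA that encodes no protein, is made from the maternal copy, and Igf2, a growth factor of the fetus, from the paternal copy. In the second domain the paternal copy makes Kcnq1ot1, a long unspliced antisense RNA that silences neighbours on the same chromosome, and the maternal copy expresses Cdkn1c, an inhibitor of cyclin-dependent kinases, Phlda2, a brake on placental growth, and Ascl2, a transcription factor of trophoblast. Nap1l4, a histone chaperone, lies at the edge of that domain. The counts hold no information on the parental copy, so levels below are sums over both copies.

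In RefSeq's annotation of GRCm38, all 7 genes lie on the minus strand of chromosome 7. H19 spans chr7:142575530-142578146 and Igf2 spans chr7:142650768-142666816. The start of Ascl2 lies 391 kb from that of H19, and the starts of Kcnq1ot1, Cdkn1c, Phlda2 and Nap1l4 follow at 718, 883, 925 and 971 kb. Kcnq1ot1 spans chr7:143213111-143296547 and runs against the protein-coding gene Kcnq1, inside which it lies.

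RefSeq windows of the 250 bases before the start were at hand for 4 of the 7 genes, and those of Kcnq1ot1, Phlda2 and Ascl2 are shown because the first 2 genes were lower at P16 in every clone and Ascl2, of the same domain, was not. Capitals mark the motif CCAAT, the core of the CCAAT box, read on either strand (ATTGG on the other strand).
Kcnq1ot1, chr7:143296548-143296797, minus strand: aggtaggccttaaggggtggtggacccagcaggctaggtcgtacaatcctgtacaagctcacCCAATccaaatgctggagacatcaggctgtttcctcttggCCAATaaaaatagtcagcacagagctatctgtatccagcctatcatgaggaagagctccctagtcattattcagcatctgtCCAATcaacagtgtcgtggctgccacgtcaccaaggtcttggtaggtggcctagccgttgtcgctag
Phlda2, chr7:143502525-143502774, minus strand: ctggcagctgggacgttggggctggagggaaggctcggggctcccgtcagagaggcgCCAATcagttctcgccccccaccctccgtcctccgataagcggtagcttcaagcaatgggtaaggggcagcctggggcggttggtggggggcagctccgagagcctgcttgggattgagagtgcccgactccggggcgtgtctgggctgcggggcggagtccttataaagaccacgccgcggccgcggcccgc
Ascl2, chr7:142969265-142969514, minus strand: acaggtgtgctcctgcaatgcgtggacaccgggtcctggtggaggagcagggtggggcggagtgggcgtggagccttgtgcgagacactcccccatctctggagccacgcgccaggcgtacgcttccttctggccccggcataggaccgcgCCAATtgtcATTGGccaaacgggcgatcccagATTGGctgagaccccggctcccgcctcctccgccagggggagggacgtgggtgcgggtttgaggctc
The motif occurs 3 times in the window of Kcnq1ot1, 3 times in that of Ascl2 and 1 time in that of Phlda2. Of 32851 RefSeq windows of this length, 33.8% hold it at least 1 time and 2.79% hold it 3 or more times. Another motif that was searched, TGCCGC on either strand, occurs in none of the windows shown and in 8.68% of all windows. The windows of Phlda2 and Ascl2 are 68.8% and 67.6% G and C with 21 and 19 CpG dinucleotides, that of Kcnq1ot1 is 51.2% G and C with 5, and the median window has 52.4% and 6.

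H19 is also the host of a microRNA, miR-675, whose hairpin lies within an H19 exon at chr7:142577064-142577147. Its mature strands from RefSeq are shown because they are the small RNA product of the one gene of the 7 that was higher at P16 in every clone, with the seed (bases 2 to 8) in capitals.
miR-675-5p: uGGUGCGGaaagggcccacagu
miR-675-3p: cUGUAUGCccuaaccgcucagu
The 2 seeds differ. The table lists the hairpin as Mir675 with 0 reads in all 8 libraries. The libraries were made from polyA+ RNA and do not measure mature microRNAs, and reads there overlap H19, so this row says nothing of the microRNA.

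The values are read counts per gene that the authors divided by a size factor per library, called normalized counts below. Whole reads could be recovered from them, with totals between 21394069 and 34295561 per library. About 21.8% of the names fall in groups where rows of different libraries had slipped against each other. None of the 7 genes lies in such a group, and tests were run on the 12283 names outside them with a mean of at least 10 normalized counts. Summed normalized counts of 10 pluripotency markers were between 114990 and 124268 at P6 and between 123699 and 125050 at P16, so the label ES cells held in every library, and 5 of the 10 were higher at P16 in 4 of 4 clones, as were 8.14% of all names tested. Markers of primitive endoderm, the extraembryonic lineage that ES cultures can form, were not level, with sums over 10 genes from 15549 to 62486 at P6 and from 12591 to 45370 at P16, and none of the 10 was at 0 in all libraries. Those of fibroblasts, which include feeder cells, summed to between 12054 and 16586 over 12 genes, and those of trophoblast to between 5605 and 16997 over 10 genes. Mesoderm markers, 7 genes, stayed between 711.9 and 2353. Of all these markers, Sox2, Zfp42, Sox17, Krt7, Krt8, Krt18 and T lie in groups of slipped rows. Their values in the sums are those after the row order was restored, and the restored value was not the only one possible in every library.

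The 7 genes differed widely in level, from 30 to 164 recovered reads per library for Ascl2 to between 5834 and 30859 for H19. Per kilobase of annotated exon, H19 was the highest with a mean of 5658 normalized counts per kb over the 8 libraries, followed by Nap1l4 with 1851. Igf2 (371), Phlda2 (347) and Cdkn1c (345) were close together, and Kcnq1ot1 (87.8) and Ascl2 (48.9) were lowest. Kcnq1ot1 has 93092 exonic bases in the GENCODE annotation, more than its span in RefSeq, and H19 has 2460. The authors counted reads on the UCSC annotation, so levels per kb are approximate. The order of Igf2, Phlda2 and Cdkn1c per kb was not the same in every library.

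**Figure D1:**
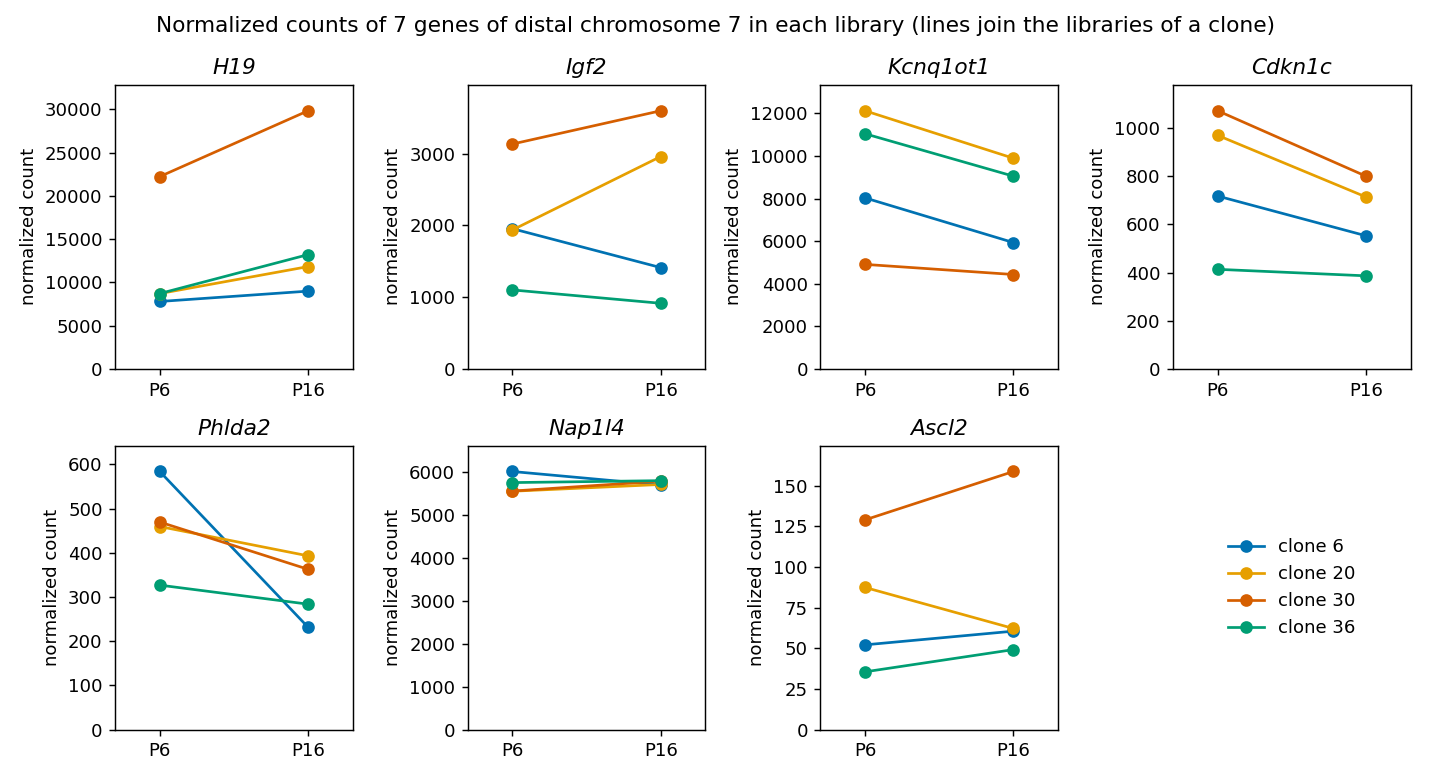
Normalized counts (linear axis from 0) of the 7 genes at P6 and P16, with 1 point per library and a line joining the libraries of each clone. H19 lines rise and those of Kcnq1ot1, Cdkn1c and Phlda2 fall in 4 of 4 clones, while the lines of Igf2 and Ascl2 run in both directions and Nap1l4 stays between 5544 and 6004.

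H19 was higher at P16 in each of the 4 clones. At P6 its normalized counts were 7796 in clone 6, 8710.4 in clone 20, 22235 in clone 30 and 8714 in clone 36. At P16 they were 8993, 11832, 29848 and 13216 in the same order. Clone 30 stood far above the other three at both passages, and the passages overlapped because the difference between clones was larger than that between passages. Means were 11864 ± 6928 (SD, n = 4) at P6 and 15972 ± 9416 (SD, n = 4) at P16. Within clones the log2 difference, P16 minus P6 on log2(normalized count + 1), was 0.21 in clone 6, 0.44 in clone 20, 0.42 in clone 30 and 0.60 in clone 36, with a mean of 0.42 ± 0.16 (SD, n = 4), or 1.34-fold. Of all names tested, 8.14% were higher at P16 in 4 of 4 clones. In bulk RNA of this kind, a change in the share of a cell type and a change in RNA per cell cannot be told apart.

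Igf2, which shares enhancers with H19, did not move with it between passages. Its normalized counts were 1954, 1935, 3132 and 1100.4 in clones 6, 20, 30 and 36 at P6. They were 1411, 2959, 3596 and 914 at P16. The gene was higher at P16 in clones 20 and 30 and lower in clones 6 and 36, and the groups overlapped throughout. Log2 differences ran from -0.47 in clone 6 to 0.61 in clone 20, with a mean of 0.02 ± 0.48 (SD, n = 4). In clones 20 and 30 both genes of the domain were higher at P16, and in clones 6 and 36 H19 was higher and Igf2 lower. The ratio of H19 to Igf2 in normalized counts was 3.99, 4.50, 7.10 and 7.92 at P6 in clones 6, 20, 30 and 36, and 6.37, 3.999, 8.30 and 14.5 at P16. It was therefore higher at P16 in 3 clones and lower in clone 20.

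Kcnq1ot1 was lower at P16 in each of the 4 clones. At P6 it was at 8032, 12124, 4909 and 11044 normalized counts in clones 6, 20, 30 and 36, and at P16 at 5935, 9894, 4434 and 9052. Clones 20 and 36 were high and clone 30 was lowest at both passages, with overlap between the passages. Means were 9027 ± 3246 (SD, n = 4) and 7328 ± 2574 (SD, n = 4). The log2 differences were -0.44, -0.29, -0.15 and -0.29, with a mean of -0.29 ± 0.12 (SD, n = 4), or 0.817-fold. Of all names tested, 9.14% were lower at P16 in 4 of 4 clones.

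Cdkn1c, a target of silencing in cis by Kcnq1ot1, was also lower at P16 in each clone. It was at 717.6, 969 and 1071 normalized counts in clones 6, 20 and 30 at P6 and at 413 in clone 36, against 553, 713.6, 799.9 and 386 at P16. Clone 36 was lowest at both passages and changed least. Log2 differences were between -0.44 in clone 20 and -0.10 in clone 36, with a mean of -0.33 ± 0.16 (SD, n = 4), or 0.793-fold. Kcnq1ot1 and Cdkn1c thus were lower together at P16, while among clones their order was not shared. The ratio of Kcnq1ot1 to Cdkn1c was 4.58 at P6 and 5.54 at P16 in clone 30, and 26.7 and 23.4 in clone 36.

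Phlda2 was lower at P16 in each clone, with 1 clone carrying much of the difference. Its normalized counts were 584, 459, 469.7 and 327 at P6 in clones 6, 20, 30 and 36, and 232, 393, 363 and 284 at P16. Clone 6 went from the highest of the 4 to the lowest. The log2 differences were -1.33 in clone 6 and between -0.37 and -0.20 in the other three, with a mean of -0.53 ± 0.54 (SD, n = 4). Without clone 6 the mean was -0.27. The libraries of clone 6 are paired mainly by their label. Across genes the P6 library was less like the P16 library of its own clone (r = 0.0956) than that of clone 36 (r = 0.281). The P16 library was nearest to the P6 library of its own clone, with r = 0.0131 or below for the other clones. Paired differences of clone 6 are uncertain to that extent for every gene. The P16 library of clone 6 also had the lowest sum of trophoblast markers, 5605 against 11242 or more in the other 7 libraries. The low sum came from the keratins and not from all 10 markers. Krt8 was at 1571 there against 5099 or more elsewhere, Krt18 at 884 against 3385 or more and Krt7 at 202 against 487 or more. The part of these in the value of Phlda2 was not tested.

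Nap1l4 and Ascl2 had no common direction. Nap1l4 ranged from 5544 to 6004 normalized counts at P6 and from 5689.8 to 5791 at P16, the narrowest range of the 7 genes, 1.08-fold from lowest to highest library. Its mean log2 difference was 0.01 ± 0.06 (SD, n = 4). Ascl2 was at 52.1, 87.4, 129 and 35.5 normalized counts at P6 in clones 6, 20, 30 and 36, and at 60.5, 62.2, 159 and 49.2 at P16. Its mean log2 difference was 0.12 ± 0.42 (SD, n = 4), with clone 20 lower by 0.48 and the other clones higher. Among the genes that moved alike in 4 clones the differences nearest to 0 were, gene by gene, -0.10 for Cdkn1c in clone 36, -0.15 for Kcnq1ot1 in clone 30, -0.20 for Phlda2 in clone 36 and 0.21 for H19 in clone 6. Just outside, Nap1l4 was higher in 3 of 4 clones, with -0.08 in clone 6. For none of the 7 genes did the 4 libraries of P16 lie all above or all below those of P6, as they did for 1.21% and 1.16% of all names tested.

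**Figure D2:**
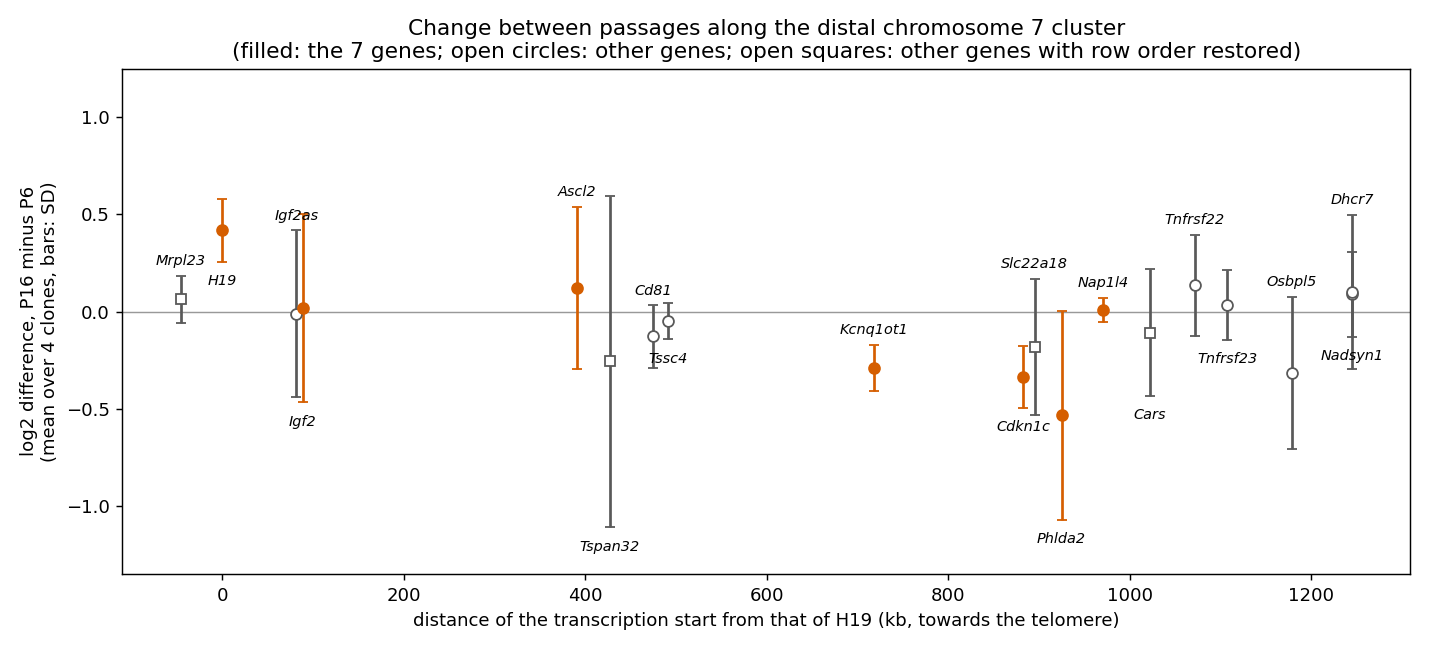
Log2 difference, P16 minus P6, of the genes of the cluster with a mean of at least 10 normalized counts (mean over 4 clones, bars show the SD) against the distance of their start from that of H19 in kb. Filled points are the 7 genes and open symbols other genes of the cluster, squares being those whose row order was restored, and the bars of H19, Kcnq1ot1 and Cdkn1c stay on one side of 0.

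The other genes of the cluster were taken from a list of 21 symbols, of which the table holds 20, and 8 were tested. None of the 8 passed the test between passages (limma without a clone term, Benjamini-Hochberg adjustment), nor did any of all 12283 names, 436 of which had an unadjusted p under 0.05. The median log2 difference was 0.01 over the 8 genes and -0.00 over all names. Osbpl5, a lipid transfer protein imprinted in placenta, had the largest difference of the 8, -0.31 ± 0.21 (SE), adjusted p = 0.975, and was lower in 3 of 4 clones. Cd81, a tetraspanin, had the highest mean, 5157 normalized counts, with a difference of -0.13 ± 0.09 (SE), adjusted p = 0.975. Tssc4, Dhcr7, Nadsyn1, Tnfrsf22, Tnfrsf23 and Igf2as lay between -0.05 and 0.13.

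Of these neighbours, 5 lie in the groups of slipped rows, and their values are those after the row order was restored, a step chosen after seeing the data. Mrpl23, a ribosomal protein of mitochondria downstream of H19, was at 760 or more and at most 891 normalized counts in all 8 libraries. Cars, a tRNA synthetase next to Nap1l4, ranged from 3482 to 5099. Slc22a18, a transporter gene between Cdkn1c and Phlda2, had at most 33.4 normalized counts, Tspan32 at most 45.9 and Th, tyrosine hydroxylase, at most 9.91. The maternally expressed neighbour Slc22a18 was higher at P16 in 2 clones and lower in 2. Tnfrsf26 (at most 6.70), Trpm5, Ins2, Mir483 and Nctc1 were near or at 0.

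Kcnq1, the potassium channel gene in which Kcnq1ot1 lies, had between 0 and 4 recovered reads per library. No direction can be read from such counts, and the methods do not say how reads on overlapping genes of opposite strands were assigned. Igf2as, antisense to Igf2 and named Igf2os in RefSeq, was at 50.8, 56.8, 96.9 and 35.5 normalized counts at P6 in clones 6, 20, 30 and 36 and at 33.3, 77.5, 100.6 and 36.9 at P16. It stood between 2.36% and 4.04% of Igf2 in every library. Reads of the 2 genes cannot be told apart where they overlap unless strand was used in counting, so its level is uncertain.

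**Figure D3:**
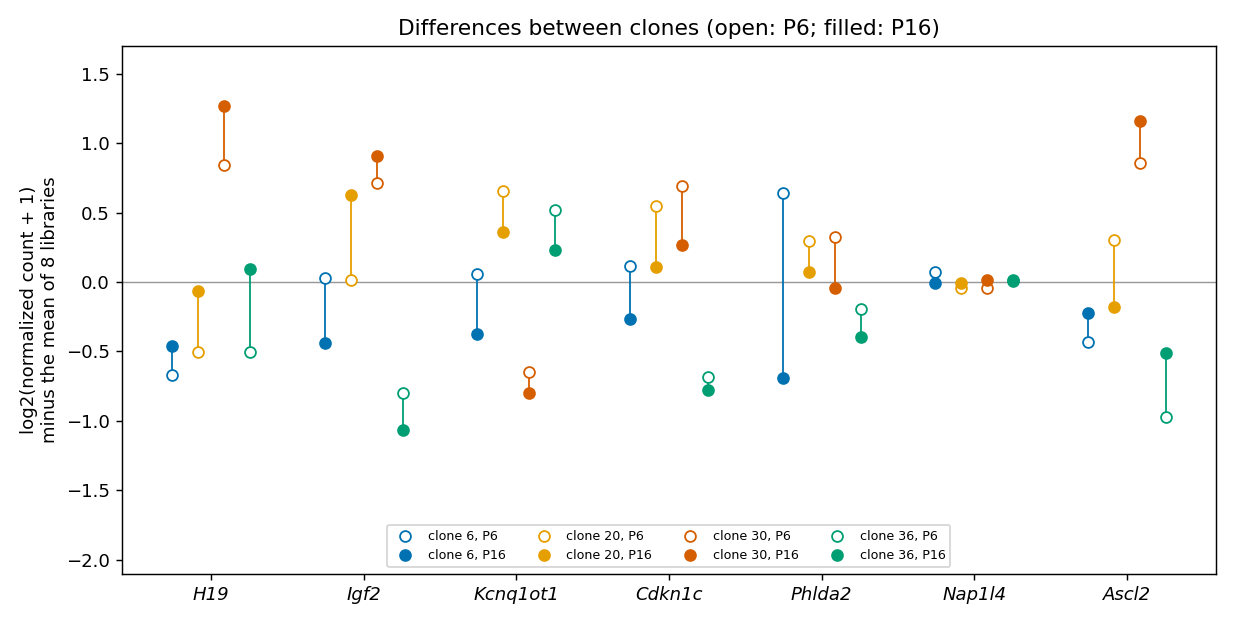
Level of each gene in each library on the log2(normalized count + 1) scale, relative to the mean of its 8 libraries. Colours are clones, open points P6 and filled points P16, and clone 30 stands apart from the other clones at both passages, high for H19 and low for Kcnq1ot1.

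The range of the clone means on the log2 scale was larger than the mean difference between passages for each of the 7 genes except Phlda2. A range over 4 clones tends to exceed a difference between 2 passages, so the measures are unlike. Over all names tested the median range was 0.305. Differences between clones were tested with an F-test in limma over 3 degrees of freedom for clone, with a term for passage, and 62 of 12283 names, or 0.505%, had an adjusted p under 0.05. H19 (adjusted p = 0.00556), Kcnq1ot1 (adjusted p = 0.00776) and Cdkn1c (adjusted p = 0.0294) were among them. Igf2 (adjusted p = 0.0852), Ascl2 (adjusted p = 0.127), Phlda2 (adjusted p = 0.632) and Nap1l4 (adjusted p = 0.912) were not. The test divides by the spread left after clone and passage are removed, so H19 and Kcnq1ot1, chosen with a like change in every clone known, enter it with a small divisor. Cdkn1c, listed as a gene of the Kcnq1ot1 domain, also changed alike in every clone. Igf2 and Ascl2 varied as much between clones, 3.34-fold and 3.39-fold from the lowest to the highest clone mean, as H19 did (3.10-fold).

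Without clone 30, 6 names, or 0.0488%, passed and none of the 7 genes was among them, with adjusted p = 0.918 for H19, 0.545 for Kcnq1ot1 and 0.669 for Cdkn1c (limma F-test). The range of the clone means on the log2 scale went from 1.62 to 0.36 for H19 and from 1.23 to 0.67 for Kcnq1ot1 without that clone. For Cdkn1c it went from 1.21 to 1.06 without clone 30 and to 0.56 without clone 36, where its call was also lost (adjusted p = 0.244). Clone 30 lay farthest from the median of the clones in 50 of the 62 names. With all names as deposited, slipped rows included, 20 names passed and H19 (adjusted p = 0.0532), Kcnq1ot1 (adjusted p = 0.0565) and Cdkn1c (adjusted p = 0.155) did not. Leaving out clone 6 gave 229 names, or 1.86%, with Igf2 called in addition, and leaving out clone 20 gave 193 names, or 1.57%, with Igf2 and Ascl2 in addition. On the recovered reads, edgeR called 73 names, or 0.594%, and the same 3 genes, and DESeq2 called 693 names, or 5.64%, and 5 of the 7 genes, Igf2 and Ascl2 in addition.

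Clone means of H19 stood in the order 30, 36, 20 and 6, at 26042, 10965, 10271 and 8394 normalized counts. Clone 30 was separate, and the ranges of the other three over their 2 libraries overlapped. Kcnq1ot1 had clones 20 (11009) and 36 (10048) on top with overlapping ranges, then clone 6 (6983) and clone 30 (4672), each apart. Igf2, Cdkn1c and Ascl2 shared the order 30, 20, 6 and 36. For Igf2 clone 36 (1007 normalized counts) and clone 30 (3364) were apart from the rest and clones 20 and 6 overlapped. For Cdkn1c only clone 36 (399.9) was apart, and for Ascl2 the ranges of all 4 clones were separate, though at 30 to 164 reads per library. In clone 30 H19, Igf2, Cdkn1c and Ascl2 were thus highest and Kcnq1ot1 lowest.

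Other features moved with the clones. Primitive endoderm markers summed to 15549 and 12591 normalized counts in clone 30 at P6 and P16, the lowest value of each passage, against 38795 and 19338 in clone 6, 27463 and 45370 in clone 20 and 62486 and 36428 in clone 36. The order at P6 was the reverse of that of Ascl2 and of Cdkn1c. At P16 it was the reverse of neither and the same as that of Kcnq1ot1. Over the 8 libraries the log2 of this sum had r = 0.854 with Kcnq1ot1, -0.888 with Ascl2 and -0.710 with H19. With Cdkn1c, Igf2, Phlda2 and Nap1l4 it had r = -0.573, -0.561, 0.045 and 0.333. Y-linked transcripts were present in clones 20 and 30 and near 0 in clones 6 and 36 at both passages, as with Ddx3y, at 1582 or more against 9.48 or less. Clone means of Igf2, Cdkn1c, Phlda2 and Ascl2 were higher in clones 20 and 30 than in clones 6 and 36. Those of H19, Kcnq1ot1 and Nap1l4 did not divide in this way. The part of the endoderm markers or of the Y-linked transcripts in the levels of the 7 genes was not tested.

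The names with the most similar pattern were ranked by Pearson's r of log2 levels over the 8 libraries, which are pairs of the same 4 clones. For H19 they included Taf6l (r = 0.966), Lrrc59 (0.958), Rhox6 (0.958) and Mtch1 (0.955), all of them over a narrower range than H19. Rhox6, a homeobox gene of the X chromosome, had the widest range of these, from 351 to 891 normalized counts. For Igf2 they were Sema3f (0.973), Colec12 (0.971), Eya2 (0.963), Clic4 (0.963) and Igf2as (0.947). Among the 7 genes themselves, Igf2 was most like Cdkn1c (r = 0.845) and H19 most like Ascl2 (0.807), while H19 and Igf2 had r = 0.609 and H19 and Kcnq1ot1 r = -0.748.

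For Kcnq1ot1 they were Gm17821 (r = 0.999), Grk4 (0.992), Pigf (0.991), Trim11 (0.985) and 4930524L23Rik (0.983). Gm17821 is a pseudogene at chr12:67657107-67668997 in RefSeq, and its count was between 101% and 110% of that of Kcnq1ot1 in every library. At P6 it was at 8559.9 normalized counts in clone 6, 12501 in clone 20, 5417 in clone 30 and 11662 in clone 36, as 8032, 12124, 4909 and 11044 for Kcnq1ot1. No stretch of 50 bases of the GENCODE transcript of Gm17821, 1693 bases long, occurs in that of Kcnq1ot1 on either strand, so shared reads were not found by this search, which does not cover the rest of the RefSeq span. Grk4, a receptor kinase, ranged from 1115 to 3104 normalized counts and had its lowest values in clone 30 as well.

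**Figure D4:**
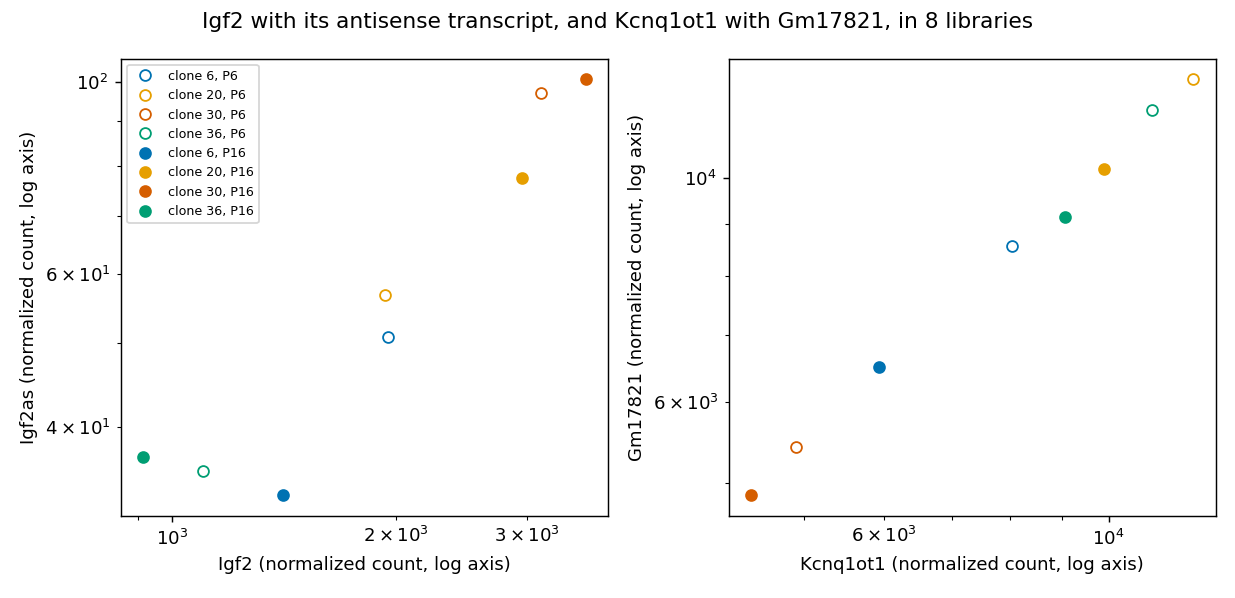
Normalized counts on log axes of Igf2as against Igf2 (left) and of Gm17821 against Kcnq1ot1 (right), with 1 point per library, colours for clones, open points for P6 and filled points for P16. Gm17821 lies between 101% and 110% of Kcnq1ot1, and Igf2as between 2.36% and 4.04% of Igf2.

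Factors that read, keep or erase imprints were set beside these genes, 24 tested of 26 listed. None passed between passages (limma, Benjamini-Hochberg adjustment), 5 were lower at P16 in 4 of 4 clones and 0 were higher in 4 of 4, against 9.14% and 8.14% of all names tested. Dnmt3b, a de novo DNA methyltransferase, had the largest log2 difference, -0.50 ± 0.17 (SE), adjusted p = 0.975. It was at 9738, 12339, 13195 and 9499 normalized counts at P6 in clones 6, 20, 30 and 36 and at 7382, 6693, 10843 and 6961 at P16. Uhrf1, which guides maintenance of methylation, had the highest mean of the 24 tested and a difference of 0.05 ± 0.13 (SE), adjusted p = 0.976. With the clone as replicate block, DESeq2 called 28 names, or 0.228%, Dnmt3b (adjusted p = 0.00324) and Zfp445 (-0.30, adjusted p = 0.00621), a zinc finger protein that binds methylated imprint control regions, among them. With the row order restored that fit called 34 names, or 0.239%, and the same 2 factors.

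Imprinted genes of other chromosomes were also set beside the 7 genes. Of 28 tested, 4 passed the clone test, Grb10 of chromosome 11 and Meg3, Rian and Mirg, non-coding RNAs of one domain of chromosome 12, where 0.505% of all names passed. None of the 28 passed between passages (limma), and 2 were higher and 1 lower at P16 in 4 of 4 clones, against 8.14% and 9.14% of all names. The one that was lower was Grb10, an inhibitor of growth factor receptors, with a log2 difference of -0.68 ± 0.51 (SE), adjusted p = 0.975 in limma without a clone term. That SE includes the spread between clones. In DESeq2 with the replicate block the SE was 0.130 and the adjusted p 0.000558. Its counts were 7437, 6169.7, 3389 and 1535 at P6 and 4365, 2974, 2083 and 1342 at P16 in clones 6, 20, 30 and 36, an order of clones unlike that of any of the 7 genes. Peg10 had the highest mean of the list and a difference of 0.08 ± 0.22 (SE), adjusted p = 0.976. The list of 6 sex chromosome transcripts had 0 called between passages and 4 between clones, all Y-linked.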

How the data were processed

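RNA was sequenced with a stranded TruSeq kit. Per the labels the authors used TopHat2 2.0.10, Bowtie 1.0.0, HTSeq 0.5.3p9 and DESeq2 on GRCm38. The deposited signal, read counts scaled by each library's size factor, gave whole reads for all values (tolerance 0.001). Values of log2(normalized count + 1) were tested with limma 3.58.1 (lmFit and eBayes with a trend, R 4.3.3), two-sided, Benjamini-Hochberg threshold 0.05, over names outside 644 groups of displaced rows. Low genes' changes are understated on this scale. Each limma SE is from the fit without a clone term, so it includes the spread between clones. edgeR 4.0.16 and DESeq2 1.42.0 ran on recovered reads. Scripts were tested on simulated data. The 7 genes and all lists were chosen with earlier results of these data known. All 7 genes are named. Of lists, called genes, otherwise the largest change and the highest mean, are named, with all cluster genes, and 5 names most like H19, Igf2 and Kcnq1ot1, of which 1 is not reported here. Clone numbers in the labels pair the libraries; deviations from passage means correlated across genes at 0.0956, 0.271, 0.701 and 0.433 for clones 6, 20, 30 and 36. No pair of libraries agreed within sampling noise (lowest chi-square 7.65 per degree of freedom).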

Additional observations from a re-analysis of the deposited data

Results flagged for a closer look

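Among 30 groups of 4 libraries, 2 values stood apart from the other 3 by a gap test (gap over range above the 95% critical value for 4 samples), and chance gives 1.5. H19 in the P6 library of clone 30 was at 22235 normalized counts against 7796 to 8714 in the others (gap over range 0.894). Tssc4, a neighbour of Cd81, was at 785 in the same library against 867 to 880.2 (0.870).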

How the results depend on the processing

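Of the 7 genes, the differences between passages of H19, Kcnq1ot1, Cdkn1c and Phlda2 kept their direction under pseudocounts of 0.5 and 10, TMM scaling and without each library. Each of them had the same sign in every clone, so leaving out a clone could not change the direction. The replicate block could not either, since its estimate is the same in this balanced design. Without 1 library or clone the log2 difference was between 0.065 and 0.77 for H19, -0.56 and -0.074 for Kcnq1ot1, -0.62 and -0.13 for Cdkn1c, -0.69 and -0.27 for Phlda2, -0.28 and 0.38 for Igf2, -0.24 and 0.43 for Ascl2 and -0.01 and 0.04 for Nap1l4. The lowest value of H19, without the P16 library of clone 30, leaves its P6 partner in. The count between passages was 0 in limma with and without the replicate block, in edgeR and in DESeq2, 1 with all names as deposited, 28 in DESeq2 with the replicate block, and 34 of 14240 names in that fit with row order restored. That fit called 2 imprint factors and 1 imprinted gene of another chromosome, with and without row order restored. Of the cell type markers, DESeq2 with the replicate block called Nanog (0.27, adjusted p = 0.0209) and Tfap2c (0.29, adjusted p = 0.0357). Both were higher at P16 and were called with row order restored too. The clone test gave 20 names as deposited, 693 in DESeq2, and 6 to 229 without a clone. Its adjusted p without a clone was between 0.00369 and 0.918 for H19, 0.00469 and 0.545 for Kcnq1ot1, 0.0241 and 0.669 for Cdkn1c, 0.0240 and 0.918 for Igf2, 0.0418 and 0.918 for Ascl2. As deposited it was 0.0532 for H19, 0.0565 for Kcnq1ot1 and 0.155 for Cdkn1c. DESeq2 gave 2.05e-10 for Igf2 and 0.00269 for Ascl2. The cause of these changes was not tested. Depth limits Ascl2 and Igf2as, with as few as 30 reads, and Kcnq1, with at most 4.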

Other observations

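Genes of insulin-like growth factor signalling, the pathway Igf2 feeds, were examined as its partners. Of 16 tested, 0 passed between passages (limma, Benjamini-Hochberg adjustment) and 0 between clones, and 1 had an unadjusted p under 0.05 between passages. That was Igfbp5, a secreted binding protein, at 235, 109, 226 and 147 normalized counts at P6 in clones 6, 20, 30 and 36 and at 288, 377, 216 and 248 at P16, a log2 difference of 0.69 ± 0.27 (SE), adjusted p = 0.975, higher in 3 of 4 clones. Igf2bp1, a protein that binds the Igf2 mRNA, had the highest mean and was between 17402 and 20302 in all libraries. Igf2r, the imprinted receptor that clears Igf2, had a difference of 0.14 ± 0.09 (SE), adjusted p = 0.975.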
